A study of Mus musculus with 6 samples.

Results

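The genes described here are 10 markers of tissue-resident macrophages, Timd4, Cd163, Lyve1, Folr2, Mrc1, Stab1, F13a1, Cbr2, Gas6 and Fcna, chosen by name from the 23946 genes of an RNA-sequencing table. All 10 were in the table, and all 10 reached 1 FPKM (fragments per kilobase of transcript and 1000000 mapped fragments) in 1 library or more, as 13064 genes did, called expressed below. Macrophages had been sorted as CD45+CD11b+F4/80+ cells from omental (OM) and mesenteric (MY) adipose tissue of C57BL/6 mice that were naive or had received an intraperitoneal injection of ID8 cells, a mouse ovarian carcinoma line of the same strain background, 24 h or 7 d earlier. The 6 conditions, OM naive, OM 24h, OM 7d, MY naive, MY 24h and MY 7d, have 1 library each.

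All mice were female and 6 to 8 weeks old by the study's methods, and the labels give no genotype beside the strain. The series used 9 mice in 3 groups of 3, by which each library would pool the tissue of 3 mice and the OM and MY libraries of a time point would share them. The labels call the control mice naive and do not say whether they received a mock injection. With 1 library per condition there is no spread between replicates, no test was made, and the order of neighbouring levels has no replicate check. Every difference below describes a pair of libraries.

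Resident macrophages of adipose tissue and serous linings are known to lie along vessels, to take up dying cells, haemoglobin and matrix fragments, and to renew locally with little input from blood monocytes. Lyve1, Timd4, Folr2 and Cd163 are widely used to mark such cells, whereas monocyte-derived macrophages typically carry Ccr2. In the omentum, resident macrophages that carry Cd163 and Timd4 are known from work on ovarian tumour spread, which is why the level of these genes after ID8 injection is of interest.

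FPKM sums were between 526887 and 713863 per library, and the commonest ratio of low FPKM values gave a rough depth between 0.859 and 1.49 times that of MY naive. How many reads support a value is not known, as FPKM carry no counts. Differences are in log2(FPKM + 1), in which the change of a gene at a low level looks smaller, and a gene was counted as higher or lower at a difference of at least 2-fold on that scale. In bulk RNA of this kind, fewer cells of a type and less RNA of a gene per cell cannot be told apart. The RNA was not that of macrophages alone. OM libraries carried genes of fibroblasts, mesothelium and neutrophils, MY libraries carried T and NK cell genes above the OM range, and B cell genes were present in both.

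Together the 10 genes were several fold more abundant in naive omentum than in naive mesentery, were higher again in the omentum at 24 h in FPKM and were lower there at 7 d than before the injection. Their summed FPKM was 614.3 in OM naive and then 1209 at 24 h and 265.7 at 7 d, and for the mesentery 115.4 (naive), 296.6 (24 h) and 149.8 (7 d). Fcna had the highest FPKM of the 10 in 4 of the 6 libraries, Cbr2 in OM 24h and Gas6 in OM 7d. All 10 stood at 10 FPKM or more in OM 24h, against 5 in OM 7d and 2 in MY 7d.

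**Figure D1:**
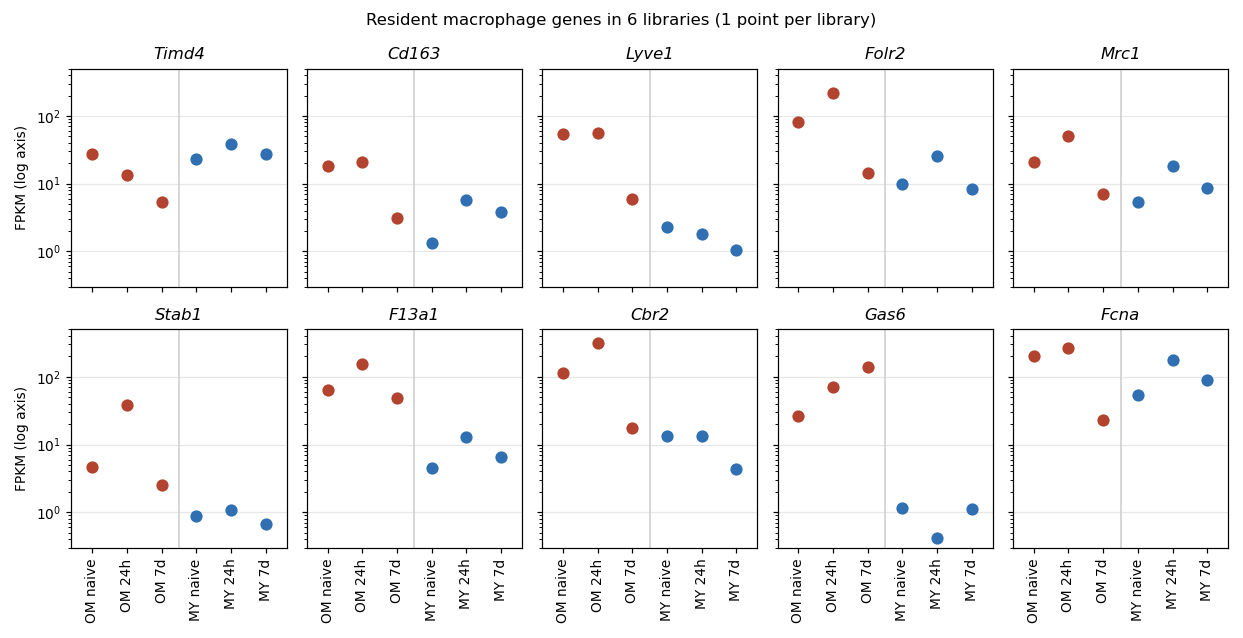
FPKM (log axis) of each of the 10 genes in the 6 libraries, 1 point per library, OM in red and MY in blue. Lyve1, Stab1, F13a1, Cbr2 and Gas6 have all 3 OM points above all 3 MY points, and most genes have their lowest OM point at 7 d.

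The first group of members are receptors that bind dying cells and cell debris. Timd4, a receptor for phosphatidylserine exposed on apoptotic cells, lies on chromosome 11 from 46624302 to 46657834 on the plus strand (NCBIM37, the mm9 assembly, GENCODE M1 annotation). Its FPKM was 27.8 in OM naive, 13.5 in OM 24h and 5.30 in OM 7d. In the mesentery it was 23.5 (naive), 38.8 (24 h) and 27.3 (7 d). Timd4 was thus at a similar level in both naive tissues and then lower in FPKM in the omentum and not in the mesentery (relative to the general macrophage genes described below, it was lower in both, with ratios of 0.759, 0.586 and 0.657 in MY naive, 24 h and 7 d), and it is the only member whose 3 OM values are in the order naive, 24 h, 7 d from high to low. Its level in OM 24h was lower than in OM naive by 0.995 log2 units, just inside the 2-fold limit, and lower in OM 7d than in OM naive by 2.19. The mesenteric values spanned 1.65-fold and the omental values 5.24-fold.

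Stab1, a large scavenger receptor for modified lipoproteins and matrix fragments, lies on chromosome 14 from 31952199 to 31981827 on the minus strand, where the annotation has the coding gene Nt5dc2 overlapping its span. The FPKM of Stab1 was 4.73 in OM naive, 38.1 in OM 24h and 2.50 in OM 7d, and 0.873, 1.08 and 0.676 in the MY libraries in the same order. It was the lowest of the 10 genes in OM naive and had the largest difference of the 10 between OM 24h and OM naive, 8.07-fold in FPKM.

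The 250 bases before the transcription start of Cbr2, Stab1, Timd4 and Gas6 are printed here because these 4 genes show the different patterns of the group: Cbr2 and Stab1 peak in OM 24h, Timd4 is lowest in OM 7d and Gas6 highest there. They are from RefSeq on GRCm38.p6, another build than that of the FPKM table, at chr11:120732022-120732271 (minus strand, Cbr2), chr14:31168642-31168891 (minus strand, Stab1), chr11:46810549-46810798 (plus strand, Timd4) and chr8:13494536-13494785 (minus strand, Gas6). Each is written 5′ to 3′ on the strand of the gene, and capitals mark GAGGAA, a core that the macrophage factor PU.1 can bind, or TGCTGA, the core of a MAF recognition element, in either orientation.
Cbr2: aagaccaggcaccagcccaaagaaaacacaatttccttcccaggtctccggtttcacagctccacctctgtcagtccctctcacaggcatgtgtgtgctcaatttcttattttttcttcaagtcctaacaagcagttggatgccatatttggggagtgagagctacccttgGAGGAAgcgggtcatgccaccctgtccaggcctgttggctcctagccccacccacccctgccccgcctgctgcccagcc
Stab1: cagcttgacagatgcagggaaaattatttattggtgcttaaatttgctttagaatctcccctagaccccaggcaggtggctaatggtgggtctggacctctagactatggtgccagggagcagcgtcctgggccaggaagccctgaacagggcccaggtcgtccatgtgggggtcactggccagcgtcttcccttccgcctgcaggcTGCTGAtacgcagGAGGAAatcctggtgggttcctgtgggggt
Timd4: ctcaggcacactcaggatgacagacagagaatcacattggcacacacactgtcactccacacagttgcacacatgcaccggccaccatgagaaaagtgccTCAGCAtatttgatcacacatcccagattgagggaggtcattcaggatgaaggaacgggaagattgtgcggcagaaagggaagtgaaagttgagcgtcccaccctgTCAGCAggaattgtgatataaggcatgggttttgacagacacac
Gas6: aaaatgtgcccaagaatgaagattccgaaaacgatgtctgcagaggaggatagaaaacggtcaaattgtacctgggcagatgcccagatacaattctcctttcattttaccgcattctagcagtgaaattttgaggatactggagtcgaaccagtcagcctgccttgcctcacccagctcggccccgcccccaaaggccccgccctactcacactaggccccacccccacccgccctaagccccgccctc
In these stretches, Cbr2 has 1 GAGGAA, Stab1 has both motifs within 30 bases of each other, Timd4 has TGCTGA at 2 places on the other strand, and Gas6 has neither. Windows from 250 bases before to 50 bases after the start were found for 9 of the 10 members, and Lyve1 had no entry. GAGGAA was found in 6 of their 11 windows, in 5 genes (Cbr2, F13a1, Fcna, Mrc1 and Stab1), against 28.3% of all 32851 promoter windows of the same length. TGCTGA was found in 6 of 11 windows, in 5 genes (Cbr2, Fcna, Folr2, Stab1 and Timd4), against 19.5% of all windows. For Cbr2 it lay after the start, outside the printed stretch. The AP-1 site TGANTCA was found in 1 of 11, for Folr2, against 7.81%. The E-box CANNTG was found in 11 of 11 (72.3% of all windows) and TATAAA in 0 of 11 (13.6%). Both strands were searched. These are matches of letters and not measured binding.

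Cd163, the receptor that clears complexes of haptoglobin and haemoglobin, lies on chromosome 6 from 124254669 to 124280545 on the plus strand. Its FPKM was 18.2 in OM naive, 21.0 in OM 24h and 3.13 in OM 7d, and 1.33 (naive), 5.67 (24 h) and 3.77 (7 d) in the mesentery. The OM naive level was 13.7 times the MY naive level, whereas OM 7d was lower than both injected MY libraries. In the mesentery Cd163 and Timd4 had the same order over time, highest at 24 h and lowest in MY naive, at different levels, since Timd4 was among the 2 highest members in every MY library and Cd163 among the 4 lowest.

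Lyve1, a receptor for hyaluronan on resident macrophages and on lymphatic endothelium, lies on chromosome 7 from 117994121 to 118006467 on the minus strand. Its FPKM was 53.5 in OM naive, 55.3 in OM 24h and 5.96 in OM 7d, and 2.26, 1.79 and 1.04 in the MY libraries in that order. The first 2 OM libraries were alike and OM 7d was 2.97 log2 units below OM naive, while the lowest OM value was still 2.63 times the highest MY value. Of the 6 listed genes of lymphatic endothelium, Prox1 had an FPKM of at most 0.261 in any library and Mmrn1 of at most 0.166. Ccl21a was listed at 0 in all 6 libraries, and Reln was under 1 FPKM in any library. Pdpn was at 2.80, 15.4 and 16.0 and Flt4 at 0, 7.66 and 3.17 in the 3 OM libraries. The part of lymphatic endothelium in the Lyve1 values was not tested.

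Mrc1, the mannose receptor CD206, lies on chromosome 2 from 14151041 to 14253684 on the plus strand. It had an FPKM of 20.8, 50.5 and 7.13 in the OM libraries (naive, 24 h, 7 d), and of 5.46, 18.5 and 8.60 in the corresponding MY libraries. Mrc1 was highest at 24 h in both tissues. Folr2, the folate receptor beta, lies on chromosome 7 from 108988512 to 108993831 on the minus strand, and had an FPKM of 81.6, 220.0 and 14.5 in the OM libraries and of 9.86, 25.7 and 8.45 in the MY libraries in the same order. Folr2 was also highest at 24 h in both tissues, with a 15.1-fold span in the omentum, and its OM 7d value lay inside the MY range.

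The secreted members are an enzyme, a lectin and a ligand. F13a1, the catalytic A subunit of coagulation factor XIII, a transglutaminase, lies on chromosome 13 from 36959047 to 37142113 on the minus strand. Its FPKM was 64.6 in OM naive, 156.5 in OM 24h and 48.5 in OM 7d, and 4.43, 13 and 6.44 in the MY libraries in that order. F13a1 was the member that differed least between OM 7d and OM naive (-0.41 log2 units), and every OM value was at least 3.73 times every MY value.

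Fcna, ficolin A, which binds sugars on microbes and dying cells and starts the lectin pathway of complement, lies on chromosome 2 from 25480186 to 25483550 on the minus strand. Its FPKM was 204.4, 269.2 and 22.6 in the 3 OM libraries and 53.0, 178.3 and 88.1 in the 3 MY libraries, in the order naive, 24 h, 7 d. OM 7d was the lowest of all 6 libraries for Fcna, below MY naive, and the 2 tissues overlapped. Cbr2, a carbonyl reductase that marks resident macrophages, lies on chromosome 11 from 120590803 to 120593428 on the minus strand. It had an FPKM of 112.4, 314.5 and 17.4 in the 3 OM libraries and of 13.5, 13.4 and 4.30 in the 3 MY libraries. Cbr2 spanned 18.1-fold in the omentum, the widest span of the 10 genes, and its OM 7d value was 1.29 times the highest MY value.

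Gas6, the secreted ligand of the receptors Tyro3, Axl and Mertk that bridges them to phosphatidylserine, lies on chromosome 8 from 13465374 to 13494535 on the minus strand. Its FPKM was 26.3 in OM naive, 69.9 in OM 24h and 138.6 in OM 7d, and 1.17 (naive), 0.414 (24 h) and 1.13 (7 d) in the mesentery. Gas6 was the only member that was higher in OM 7d than in OM 24h and OM naive, and its lowest OM value was 22.4 times its highest MY value, the widest gap of the 10. For all 10 members, none of the 75-base windows of the longest coding transcript occurred in another coding gene of GENCODE M1.

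The summed FPKM of fibroblast and of mesothelial genes was also highest in OM 7d, although Krt19 was higher in OM 24h (405.6) than in OM 7d (349.1). The 6 fibroblast genes Col1a1, Col1a2, Col3a1, Dcn, Lum and Pdgfra were all above the MY range in every OM library, with a summed FPKM of 344.6, 221.5 and 1190 in the omentum (naive, 24 h, 7 d) and of 2.08 to 3.10 in the mesentery. The 6 mesothelial genes Msln, Upk3b, Lrrn4, Wt1, Krt19 and Upk1b were likewise all above the MY range, with sums of 69.8, 740.7 and 782.4 in the OM libraries and of 0.0830 to 0.567 in MY, where Wt1 was listed at 0 in MY naive and MY 7d. Gas6 was highest in the library in which both sums were highest, and in OM 24h it was above OM naive while the fibroblast sum was below. In contrast, the other 9 members were lower in OM 7d than in OM 24h while these sums were higher. The part of fibroblast and mesothelial RNA in the Gas6 values was not tested, nor was that of RNA from the injected ID8 cells.

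**Figure D2:**
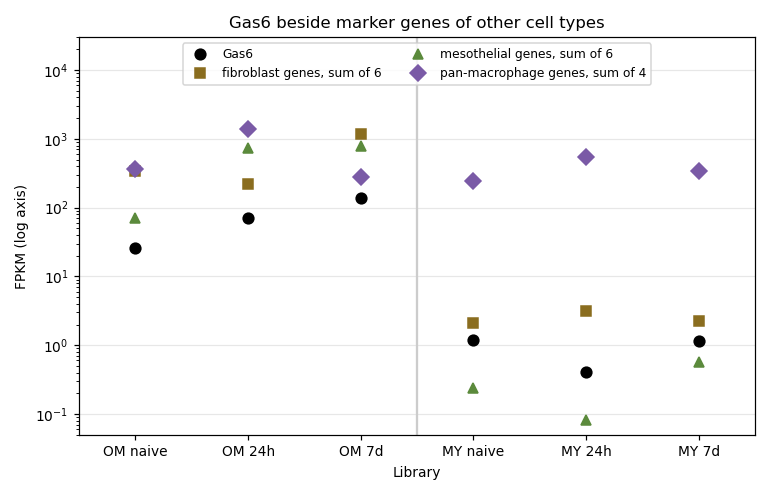
FPKM (log axis) of Gas6 and the summed FPKM of fibroblast (6), mesothelial (6) and pan-macrophage (4) genes in the 6 libraries. Gas6 and the fibroblast and mesothelial sums are all highest in OM 7d and at 3.10 or below in the MY libraries, while the pan-macrophage sum is highest in OM 24h.

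The first comparison asked how omental and mesenteric macrophages differed before tumour cells were present. In OM naive, 9 of the 10 genes were at least 2-fold higher than in MY naive and 0 were lower, where 8.18% of the expressed genes were higher and 8.05% lower. The median difference of the members was 2.95 log2 units. Over all expressed genes, the medians of the 8 library pairs compared here lay between -0.01 and 0.05. Lyve1 differed most (4.06 log2 units, 23.7-fold in FPKM), followed by Gas6 (3.65), F13a1 (3.59) and Cd163 (3.04), and Timd4 least (0.23).

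**Figure D3:**
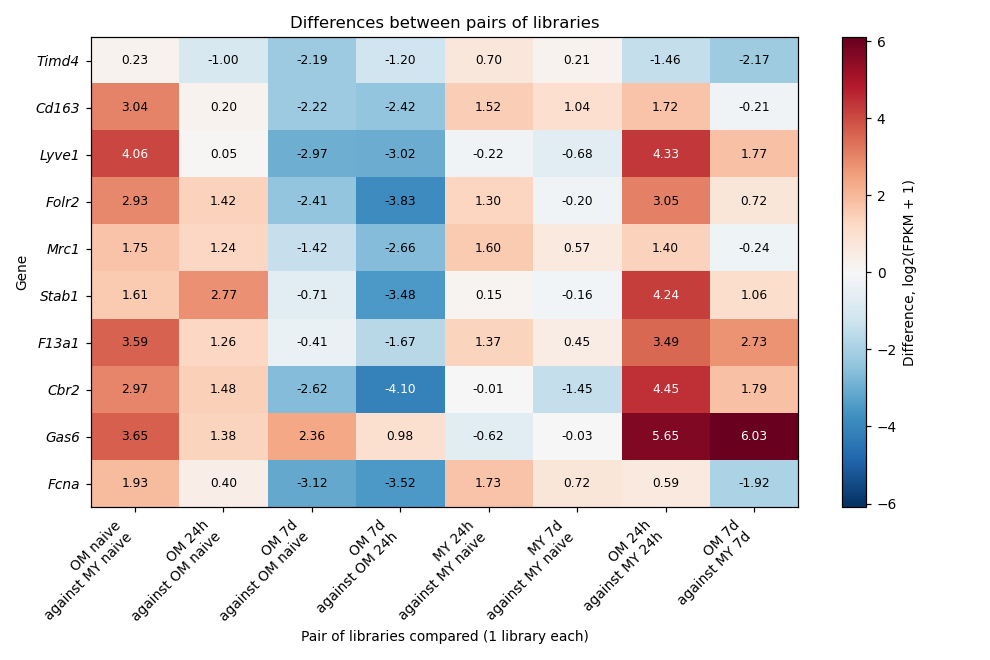
Difference in log2(FPKM + 1) for each gene (rows) in each pair of libraries (columns), with the first library named minus the second and the value printed in each cell. Red cells fill the column of OM naive against MY naive apart from Timd4 at 0.23, and blue cells the columns of OM 7d against OM naive and against OM 24h apart from Gas6.

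At 24 h after the injection, 6 of the 10 genes lay 2-fold or more above OM naive in OM 24h and 0 below, with 11.9% of expressed genes higher and 6.45% lower, although relative to general macrophage genes, described next, 9 of the 10 and 92.8% of expressed genes were lower. The 6 were Stab1 (2.77 log2 units), Cbr2 (1.48), Folr2 (1.42), Gas6 (1.38), F13a1 (1.26) and Mrc1 (1.24), and the median of the 10 was 1.25. Fcna, Cd163 and Lyve1 differed by 0.40, 0.20 and 0.05 log2 units, and Timd4 was the only member with a lower value. Genes common to most macrophages were higher in OM 24h as well. The geometric mean FPKM of Csf1r, Cd68, Fcgr1 and Emr1, which encodes the F4/80 used in the sort, was 48.0 in OM naive, 238.4 in OM 24h and 48.3 in OM 7d, and 31.0, 66.2 and 41.5 in the MY libraries in that order.

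Relative to these 4 genes, nearly all expressed genes were lower in OM 24h than in OM naive, with an all-gene median of -1.79 log2 units. A lower value on this scale is therefore not particular to the members. With 1 added to the rescaled FPKM, as for that all-gene median, the median of the members was -0.996, nearer to 0 than that of all expressed genes. The plain ratio of FPKM to the geometric mean was lower in OM 24h than in OM naive for 9 of 10 members, with a median log2 change of -1.03. It was higher for Stab1, from 0.0985 to 0.160. The ratio of Timd4 was 0.579 in OM naive and 0.0564 in OM 24h, that of Cd163 0.379 and 0.0882, that of Lyve1 1.11 and 0.232, and that of Fcna 4.26 and 1.13. Timd4, Cd163, Lyve1 and Fcna were thus at an FPKM at most 1.32 times that of the naive omentum while the general macrophage genes were several fold higher. Genes of other cell types differed between these 2 libraries as well. From OM naive to OM 24h, summed FPKM went from 3967 to 904.4 for B cell genes and from 134.0 to 26.8 for T cell genes. It went from 131.5 to 16.3 for NK cell and from 63.4 to 4.36 for mast cell genes. Neutrophil genes went from 7446 to 17718 and mesothelial genes from 69.8 to 740.7. How much of either scale reflects the number of macrophages or of other cells in the sorted pool was not tested.

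**Figure D4:**
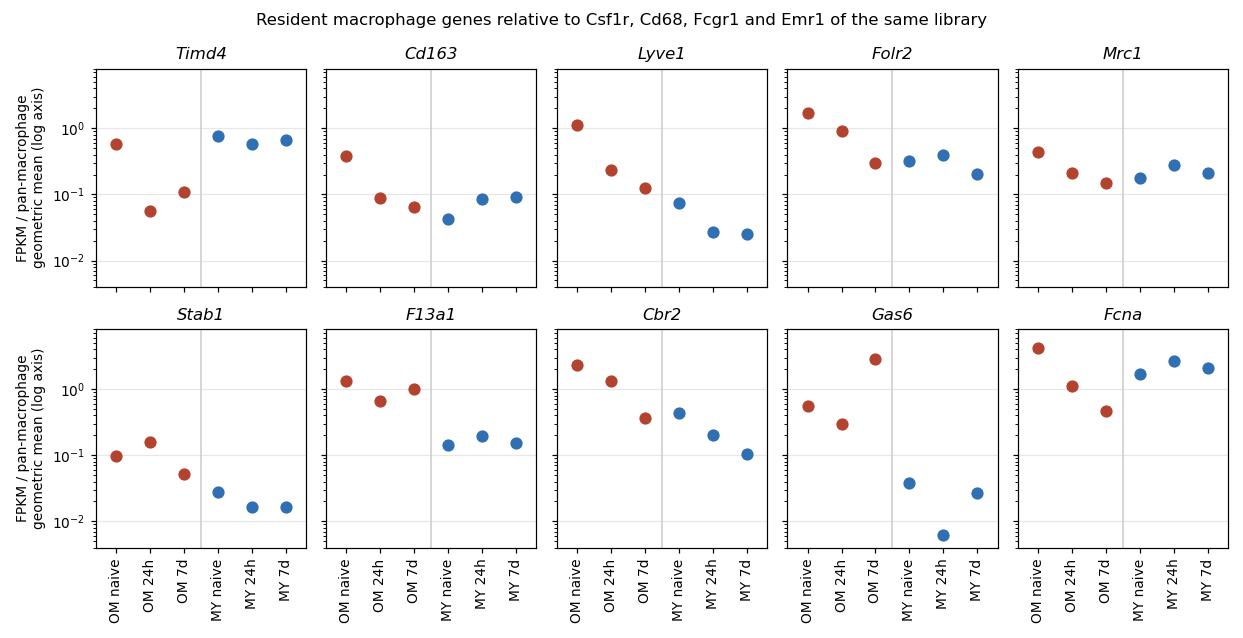
FPKM of each gene divided by the geometric mean FPKM of Csf1r, Cd68, Fcgr1 and Emr1 in the same library (log axis), 1 point per library, OM in red and MY in blue. On this scale 9 of 10 genes, like 92.8% of expressed genes, are lower in OM 24h than in OM naive, and Timd4 lies lower in OM 24h and OM 7d than in any MY library.

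At 7 d, 7 of the 10 genes were at least 2-fold lower in OM 7d than in OM naive, where 1.96% of expressed genes were lower, and 1 was higher, where 11.0% were. The median was -2.21 log2 units. Fcna (-3.12), Lyve1 (-2.97), Cbr2 (-2.62), Folr2 (-2.41), Cd163 (-2.22), Timd4 (-2.19) and Mrc1 (-1.42) were lower, Stab1 (-0.71) and F13a1 (-0.41) were under 2-fold, and Gas6 was 2.36 higher. The geometric mean of the general macrophage genes was nearly the same in both libraries, with Csf1r and Cd68 lower and Fcgr1 higher in OM 7d, and the ratio to it gave a median of -2.45. Of 10 genes typical of monocytes and recruited macrophages, 5 were at least 2-fold higher in OM 7d than in OM naive (Ly6c2, Vcan, Chil3, Trem2 and Spp1) and 0 were lower, with a median of 0.74 log2 units. Ly6c2 had an FPKM of 164.0, 241.4 and 390.9 and Ccr2, the receptor for monocyte chemokines, of 136.7, 302.5 and 112.5 in OM naive, 24 h and 7 d, so that Ccr2 differed by under 2-fold between OM 7d and OM naive. The part of recruited cells in the lower values of the members was not tested.

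OM 7d was also compared with OM 24h. Of the 10 genes, 9 were at least 2-fold lower, where 4.52% of expressed genes were lower, and 0 were higher, where 7.03% were, although relative to the general macrophage genes 4 members stayed at least 2-fold lower and Timd4 and F13a1 were higher in OM 7d. The median was -2.84 log2 units. Relative to the general macrophage genes, with 1 added after rescaling, the median was -0.65, where 98.1% of expressed genes were higher in OM 7d. In log2(FPKM + 1), the largest difference was that of Cbr2 (-4.10). Gas6 was 0.98 log2 units higher, just under 2-fold. Both OM 7d comparisons share the OM 7d library, and OM 24h and OM 7d were each set against the same OM naive library, so that these counts are not independent of each other.

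The mesentery was compared in the same way. In MY 24h, 5 genes were at least 2-fold higher than in MY naive and 0 were lower, where 2.80% of expressed genes were higher and 1.52% lower, although relative to the general macrophage genes 5 of the 10 were higher and 5 lower, where 93.1% of expressed genes were lower. They were Fcna (1.73 log2 units), Mrc1 (1.60), Cd163 (1.52), F13a1 (1.37) and Folr2 (1.30), and the median of the 10 was 0.997. The geometric mean of the general macrophage genes was higher by 1.09 log2 units, and relative to it the median of the members was -0.04. In MY 7d, Cd163 was 1.04 log2 units higher than in MY naive, where 0.498% of expressed genes were at least 2-fold higher, and Cbr2 was 1.45 lower, where 2.29% were lower, and the other 8 were within 2-fold.

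After the injection, the tissues differed in another way than before it. At 24 h, 8 genes were at least 2-fold higher in OM than in MY (13.9% of expressed genes) and Timd4 was lower by 1.46 log2 units (10.2% of expressed genes were lower), although relative to the general macrophage genes Mrc1 and Fcna were lower in OM as well, where 88.2% of expressed genes were. At 7 d, Gas6 (6.03 log2 units), F13a1 (2.73), Cbr2 (1.79), Lyve1 (1.77) and Stab1 (1.06) were higher in OM, where 14.1% of expressed genes were. Timd4 (-2.17) and Fcna (-1.92) were lower in OM 7d than in MY 7d, where 4.99% of expressed genes were. Cd163, Mrc1 and Folr2, all several fold higher in naive omentum, differed by -0.21, -0.24 and 0.72 log2 units at 7 d.

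Over the 3 time points, Lyve1, Stab1, F13a1, Cbr2 and Gas6 had every OM value above every MY value, and 0 members had every OM value below. Among the expressed genes, 16.7% were above in this way and 17.7% below, so that each direction alone is common in these libraries. Without the 7 d libraries, 9 members had both OM values above both MY values, all but Timd4, where 26.3% of expressed genes did. Relative to the general macrophage genes, Lyve1, Stab1, F13a1 and Gas6 were above, as 5.04% of expressed genes were, and Timd4 was below, as 16.2% were. Genes induced by tissue dissociation, such as Fos, Jun and Hspa1a, moved with the tissue too: 9 of 10, all but Dnajb1, were above the MY range in every OM library, with sums of 3446 to 5373 in OM and 457.3 to 485.8 in MY. The neutrophil genes were above in 6 of 7, all but Cxcr2, with sums of 7446 to 19764 in OM and 222.2 to 880.3 in MY. The T cell genes were below in 6 of 6, with sums of 26.8 to 134.0 in OM and 566.0 to 1145 in MY. Their part in the differences was not tested.

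Of 24 other genes used to mark resident macrophages, all expressed here, the 2 tissues shared no single direction. In OM naive, 12 were at least 2-fold higher than in MY naive (8.18% of expressed genes) and 7 lower (8.05%). The median was 0.51 log2 units. Relative to the general macrophage genes, 8 were higher and 9 lower, where 5.48% and 21.2% of expressed genes were. Over the 3 time points, 7 were above the MY range in every OM library, Vsig4, Cd209f, Clec10a, Pf4, Nrp1, Colec12 and Ccl24. Below it were 6, Marco, Cd5l, Cd209d, Hpgd, Siglec1 and Slc40a1. Among expressed genes, 16.7% were above in this way and 17.7% below. Vsig4, a complement receptor of resident macrophages, had an FPKM of 27.8, 37.2 and 1.53 in the omentum (naive, 24 h, 7 d) and of at most 0.0374 in the mesentery. Marco, a scavenger receptor for particles, had an FPKM of 5.17 to 42.3 in OM and of 202.4 to 537.3 in MY. Resident-type genes were therefore present in both tissues, some above the MY range in OM and some below it. A high level of the 10 genes in the omentum does not stand for all markers of resident macrophages. The origin of the cells, embryonic or monocyte-derived, was not measured in these libraries.

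**Figure D5:**
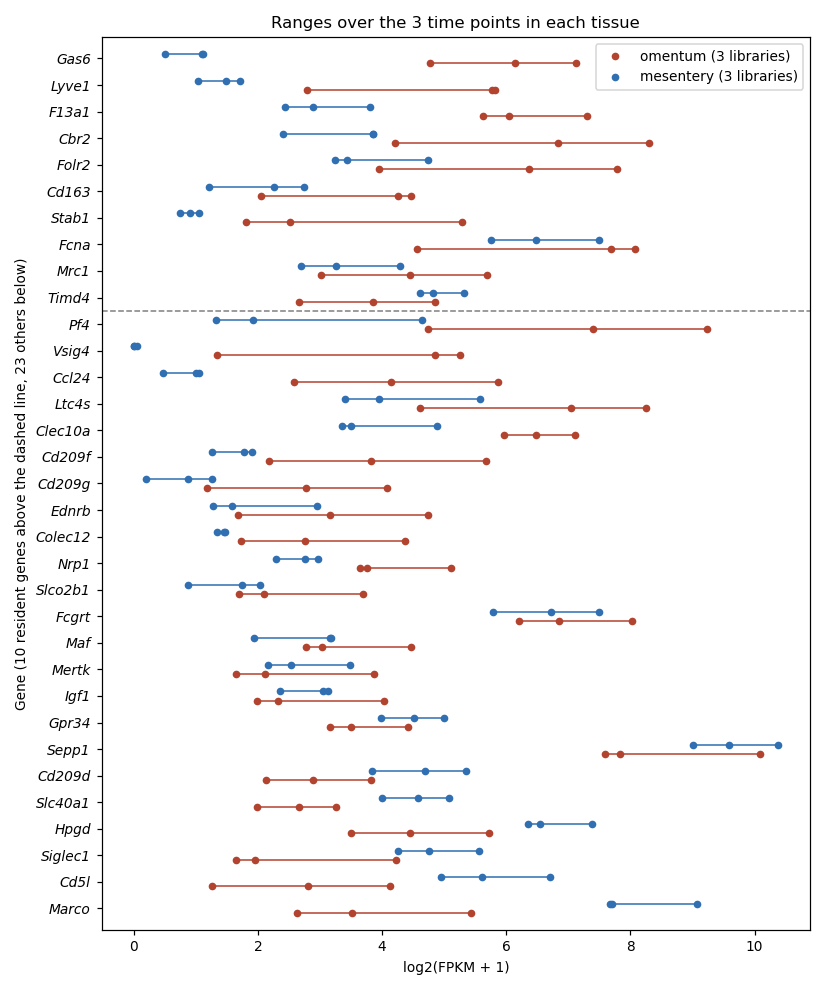
Values of log2(FPKM + 1) for the 10 genes (above the dashed line) and 23 of the 24 other resident-type genes (below it), with the 3 OM libraries in red, the 3 MY libraries in blue and a line from the lowest to the highest of each tissue. The red and blue lines do not overlap for 5 of the 10 genes, all with OM higher, and for 13 of those 23, 7 with OM higher and 6 with MY higher. Among expressed genes, 16.7% had OM higher in this way and 17.7% had MY higher.

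Over time in the omentum, most of the 24 genes were higher at 24 h in FPKM, although relative to the general macrophage genes 21 of them were lower, with a median of -0.62 log2 units beside -1.79 over all expressed genes. In OM 24h, 19 of the 24 lay 2-fold or more above OM naive (11.9% of expressed genes) and 1 below, Colec12. In OM 7d, 9 were lower than in OM naive (1.96% of expressed genes) and 1 was higher, again Colec12. The 9 were Vsig4, Cd5l, Cd209d, Cd209f, Cd209g, Pf4, Ltc4s, Ednrb and Ccl24. Against OM 24h, 21 were lower in OM 7d (4.52%). Relative to the general macrophage genes, 5 were lower and 4 higher in OM 7d than in OM 24h, where 0.214% and 86.5% of expressed genes were. In the mesentery, 14 of the 24 were at least 2-fold higher in MY 24h than in MY naive (2.80% of expressed genes) and 0 lower (1.52%). Relative to the general macrophage genes, 1 was higher and 1 lower, where 0.620% and 43.1% of expressed genes were. In MY 7d, 0 were higher and 2 lower than in MY naive, where 0.498% and 2.29% of expressed genes were.

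The members were not copies of 1 pattern. Over the 6 libraries, which are different conditions and not replicates, the pairwise Pearson correlation of log2(FPKM + 1) among Cd163, Lyve1, Folr2, Mrc1, Stab1, F13a1 and Cbr2 was 0.738 to 0.964, with a median of 0.876 over 21 pairs. The other 3 were left out of this range after their values were seen. Timd4 and Gas6 had opposite patterns, with an r of -0.825. Among the 7998 genes that reached 10 FPKM in some library, the 3 nearest to each member by r over the 6 libraries are given in order. For Lyve1 they were Amz1, Crlf2 and Vsig4 (r from 0.993 to 0.997) and for Folr2 Pilrb2, Ltc4s, which makes leukotriene C4, and Ccdc132 (0.987 to 0.997). For Mrc1 they were the endothelin receptor Ednrb, Smpdl3a and Tnfrsf21 (0.982 to 0.994), for Stab1 Commd1, Gdf15 and Atp6v0a1 (0.992 to 0.997), for F13a1 Nlrx1, Ppap2c and Mmp9 (0.997 to 0.998) and for Cbr2 Cd209g, Spink2 and Nudt2 (0.989 to 0.992). Nearest to Gas6 were Cyr61, Wfdc1 and Ehd2 (0.996 to 0.997), to Timd4 Hectd3, Stat6 and Foxn2 (0.957 to 0.982), to Cd163 Cmpk1, Sh3tc1 and Rpl10 (0.983 to 0.992) and to Fcna Tpt1, Marveld1 and Lipo1 (0.950 to 0.980). With 6 points and so many genes, an r this high is a description of shape only. Nearest to the mean of the 10 were Mecr, Erp29, Pilrb1, Rnf13 and Ly86, a partner of the Toll-like receptor homologue Cd180 on myeloid and B cells.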

How the data were processed

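RNA of macrophages sorted from omentum and mesenteric adipose tissue was sequenced, with 1 library for each of 6 conditions. Reads were checked with FastQC 0.11.4 and aligned to mm9 with STAR 2.4.2a (submitters' processing notes), and the authors computed the deposited FPKM with Cufflinks and a UCSC annotation. Counts and strand were not analysed here, so no count test was made. The table's columns were assigned to conditions by their names, which give 0 h for naive. FPKM give no read counts, and only a rough relative depth from their lowest values.

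From the FPKM, log2(FPKM + 1) differences between pairs of libraries were computed with Python 3.11.15, numpy 2.4.6 and pandas 2.3.3. Expressed genes were those that reached 1 FPKM in any library, and 2-fold, used in the study's methods to choose genes for enrichment, was the threshold. With 1 library per condition, no test was made. The genes named are the 10 members, genes of fixed lists, and for each member the 3 genes with the highest correlation (5 for the mean of the members), searched among genes that reached 10 FPKM. The 10 genes and the lists were chosen with earlier results of these data known. Alternatives were pseudocounts of 0.1 and 5, other filters, a 3-fold threshold, leaving out time points, and 3 scalings, by median ratio, to a sum of 1000000 and to the pan-macrophage genes. The 2-fold calls and the median-ratio scaling were tested on simulated data, with planted changes well above 2-fold. The other calculations were not tested in this way. The values of 1 listed gene are not reported here. Figures were drawn with matplotlib 3.10.9.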

Additional observations from a re-analysis of the deposited data

Results flagged for a closer look

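For 10 member and time pairs, the OM library after ID8 injection and the MY library after it differed from their naive libraries in opposite directions. With 1 library per condition the difference between the tissues was not tested, and 38.0% of expressed genes at 24 h and 47.3% at 7 d had opposite signs as well. Values are the change in OM minus the change in MY in log2(FPKM + 1).

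At 24 h, Timd4 was lower in OM 24h and higher in MY 24h (-1.69), and Gas6 was higher in OM 24h and lower in MY 24h, where its FPKM was under 1 (1.999). The value was 1.49 for Cbr2, whose mesenteric change was -0.01, and 0.27 for Lyve1, whose changes in both tissues were under 2-fold. Relative to the general macrophage genes, all 4 were lower at 24 h than in the naive library of either tissue. Of expressed genes, 92.8% in OM and 93.1% in MY were lower on that scale too.

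At 7 d, Timd4 (-2.40), Cd163 (-3.25), Mrc1 (-1.99), F13a1 (-0.86) and Fcna (-3.84) were lower in OM 7d and higher in MY 7d than in the naive library of the tissue. Of these, only Cd163 and Fcna changed by at least 1.5-fold in both tissues. The mesenteric change was 0.21 for Timd4, 0.57 for Mrc1 and 0.45 for F13a1, whose omental change was -0.41. Gas6 was higher in OM 7d (2.38), with a mesenteric change of -0.03. Timd4 and Gas6 are the members with opposite signs at both times in FPKM. Relative to the general macrophage genes, Timd4 was lower at 7 d than in the naive library in OM (-2.40 log2 units) and in MY (-0.21).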

How the results depend on the processing

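No paired analysis was possible because a pair of conditions has 1 library on each side, and a fit of tissue with the time point as a block was not made, since it would take the 3 time points of a tissue as replicates. Of 535 values under other settings, 446 stayed within 1.5 times of the reported value (0.58 log2 units) and 80 moved further. The other 9 were at least 2-fold apart as reported and turned direction. All 9 were under the scaling to the pan-macrophage genes (here FPKM rescaled before 1 was added). Reported differences under 2-fold that changed sign were counted among the 446 or the 80, such as the median for MY 24h against MY naive, reported as 0.997. Median-ratio rescaling and a sum of 1000000 each moved none of the 80 single-member values that far. Under the pan-macrophage scaling, the median of the members was -0.996 for OM 24h against OM naive, -0.65 for OM 7d against OM 24h, -0.045 for MY 24h against MY naive and 1.44 for OM 24h against MY 24h, and the number at least 2-fold apart was 5 for OM 7d against OM 24h and 3 for MY 24h against MY naive. Of the members that were at least 2-fold apart as reported, those that turned were Folr2 (-0.87), Mrc1 (-0.98), F13a1 (-1.02), Cbr2 (-0.82) and Gas6 (-0.86) in OM 24h against OM naive, Timd4 (0.79) and F13a1 (0.60) in OM 7d against OM 24h, and Mrc1 (-0.38) in OM 24h against MY 24h. This scaling shifted the median of all expressed genes by up to -1.79 (OM 24h against OM naive) and 1.87 (OM 7d against OM 24h), and a sum of 1000000 by up to 0.36 (OM 7d against OM 24h).

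With a pseudocount of 5 the median was 2.11 for OM naive against MY naive and -1.59 for OM 7d against OM naive, and the number at least 2-fold apart was 3 for MY 24h and 0 for MY 7d against MY naive. A 3-fold threshold left 1 member in OM 24h against OM naive, 2 in MY 24h and 0 in MY 7d against MY naive. Without the 7 d libraries, an alternative chosen after seeing the data, 9 members in place of 5 had OM values above MY values. With no filter on low values, the share of genes at least 2-fold apart was 8.85%, 10.01%, 7.05%, 6.30%, 2.36%, 1.52%, 13.1% and 10.4% in the order of the 8 comparisons (OM naive against MY naive, OM 24h and OM 7d against OM naive, OM 7d against OM 24h, MY 24h and MY 7d against MY naive, OM against MY at 24 h and 7 d), against 16.2%, 18.3%, 12.9%, 11.5%, 4.32%, 2.79%, 24.1% and 19.1% of expressed genes, since more genes near 0 were counted. Without read counts, differences of Stab1, Gas6 and Lyve1 in the mesentery, at an FPKM near 1, have no known precision.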

Other observations

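Relatives and partners of the members had patterns of their own. Fcnb, the other mouse ficolin, typical of neutrophils and monocytes, had an FPKM of 29.4 (naive), 36.3 (24 h) and 52.0 (7 d) in the omentum and of 1.36, 0.0512 and 0.0243 in the mesentery. It was highest in OM 7d, where Fcna was lowest. Folr1, the folate receptor alpha of epithelia and mesothelium, was at 0.0300, 10.9 and 10.1 in the OM libraries and listed at 0 in all 3 MY libraries, whereas Folr2 was highest in OM 24h. Stab2, the relative of Stab1, was at 1.83 to 3.36 in MY and at most 0.0967 in OM, the reverse of Stab1. Tgm2, the tissue transglutaminase, was at 16.0, 136.9 and 75.2 in OM and 24.5 to 30.9 in MY, while F13b, the carrier subunit of factor XIII, was at most 0.101 in any library.

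Of the receptors of Gas6, Axl was at 37.4, 201.0 and 61.8 in the omentum (naive, 24 h, 7 d) and at 25.7, 74.1 and 42.8 in the mesentery, highest at 24 h in both tissues. Mertk was at 3.34, 13.6 and 2.13 in OM and 3.47, 10.2 and 4.76 in MY, also highest at 24 h in both tissues. The 7 d value of Mertk lay below naive in OM and above naive in MY, whereas that of Axl lay above naive in both. Tyro3 was at 0.0814, 7.40 and 8.37 in OM and at most 0.972 in MY. In the haemoglobin pathway of Cd163, Hmox1, which breaks down haem, was at 29.5, 136.5 and 15.4 in OM and 52.8, 102.4 and 32.4 in MY, highest at 24 h in both tissues. Of 6 relatives of Timd4 and Cd163 (Havcr1, Havcr2, Cd163l1, Cd5l, Cd5 and Cd6), 5 were above the OM range in every MY library, all but Havcr2. Among expressed genes, 17.7% had this pattern. Cd5 and Cd6 are also genes of T cells, whose marker sums were higher in MY.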
